A study of Mus musculus with 12 samples.

Results

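Bulk RNA-seq libraries from lung tumours of mice that received an antibody against PD-1 alone were compared with libraries from control tumours. The 6 libraries, 3 per group, were taken by their titles from 12 in the series. All 6 came from the RPM mouse, whose alleles are Rb1 fl/fl, p53 fl/fl and Myc lsl/lsl T58A, a model of small cell lung cancer (SCLC). At 8 weeks of age these mice were given Ad5CGRP-Cre into the trachea, an adenovirus in which the CGRP promoter directs Cre to neuroendocrine cells, so that Rb1 and Trp53 are deleted and a stabilised form of Myc is switched on there. Mice whose tumours were visible on magnetic resonance imaging were randomised by tumour volume. The antibody was given at 10 mg/kg into the peritoneum 2 times a week for 4 weeks. Control libraries are labelled only as control: the study used methylcellulose vehicle and a rat IgG2a isotype antibody as controls, and the labels do not tell which of them these mice received. The other 6 libraries are 3 of mice given entinostat, an inhibitor of class I histone deacetylases, at 15 mg/kg daily for 28 days, and 3 of mice given both agents. The labels do not say that each library came from a different mouse, so every p-value here measures the spread between these samples, which may be technical in part.

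PD-1, encoded by Pdcd1, is an inhibitory receptor on activated T cells. When its ligands PD-L1 (Cd274) and PD-L2 (Pdcd1lg2) on tumour or myeloid cells engage it, the phosphatase SHP2 (Ptpn11) is recruited and signalling from the T cell receptor is dampened. A blocking antibody acts on the T cell and not on the tumour cell, so a response in bulk tissue would be read in T cell, cytotoxic and interferon-induced transcripts. SCLC is known for few infiltrating T cells and for low presentation of antigen by MHC class I.

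The 6 libraries held between 34107018 and 54001886 counts, with 40534618 to 54001886 in the control group and 34107018 to 37076865 with anti-PD-1. The share of counts taken by Rpph1, Rn45s and Rmrp differed between the groups without overlap. These are the RNA of ribonuclease P, the precursor of ribosomal RNA and the RNA of ribonuclease MRP. Their summed share was 7.84%, 13.1% and 13.2% in control libraries 1 to 3 and 25.6%, 36.4% and 20.5% in anti-PD-1 libraries 1 to 3. Control library 1 stood apart from the other 5 on the first principal component of the 12 libraries (27.2% of the variance), and Xist was high in control library 3 and in anti-PD-1 libraries 1 and 2, so that the sexes were not balanced. The summed level of 18 alveolar epithelial markers was 114, 537 and 138 CPM (counts scaled to library size) in the control libraries and 132, 596 and 282 CPM with anti-PD-1. Markers of normal lung were thus present in both groups, in unequal amounts between libraries. The part of these imbalances in the results below was not tested, except where a fit with one of them as a covariate is given.

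The sequences shown here are those of the RNAs and promoters on which the comparison turned. Only Lars2, which encodes the mitochondrial leucyl-tRNA synthetase, passed the test across all genes. Of the 109 tested small nucleolar and Cajal body RNAs, 46 stood above the control range (42.2%, against 6.79% of all genes). None stood below it, against 10.7% of all genes. Cdk4, a target of MYC and the kinase partner of D cyclins, was among the genes with the smallest p-values. Snord104 belongs to the box C/D class, which guides 2′-O-methylation. Scarna6 resides in Cajal bodies. Letters in capitals mark the C box (TGATGA) and the D box (CTGA) in both.
Snord104: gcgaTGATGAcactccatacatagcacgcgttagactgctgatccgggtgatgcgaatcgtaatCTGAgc
Scarna6: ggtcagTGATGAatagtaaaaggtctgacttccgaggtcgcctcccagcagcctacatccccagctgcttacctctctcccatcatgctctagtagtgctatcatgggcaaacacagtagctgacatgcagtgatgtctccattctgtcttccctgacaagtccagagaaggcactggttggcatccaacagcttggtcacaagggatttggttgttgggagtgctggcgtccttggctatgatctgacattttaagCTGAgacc
In GRCm38 they lie at chr11:106500993-106501062 and chr1:87784556-87784820, both on the plus strand. Of 98 annotated Snord genes, 68 (69.4%) carry TGATGA within 20 bases of the start together with CTGA within 20 bases of the end. The build named for the deposited table is mm9, so these positions place the RNAs but were not used to count reads.

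The 250 bases before the start sites of Cdk4 and Lars2 (RefSeq, GRCm38.p6) follow, with each CACGTG, the E-box that MYC and MAX bind and which reads the same on both strands, in capitals.
Cdk4: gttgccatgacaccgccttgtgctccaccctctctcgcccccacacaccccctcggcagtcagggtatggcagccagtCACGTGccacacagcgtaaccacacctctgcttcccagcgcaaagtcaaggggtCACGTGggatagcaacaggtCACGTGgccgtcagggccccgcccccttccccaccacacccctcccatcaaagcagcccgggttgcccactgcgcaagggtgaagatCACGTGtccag
Lars2: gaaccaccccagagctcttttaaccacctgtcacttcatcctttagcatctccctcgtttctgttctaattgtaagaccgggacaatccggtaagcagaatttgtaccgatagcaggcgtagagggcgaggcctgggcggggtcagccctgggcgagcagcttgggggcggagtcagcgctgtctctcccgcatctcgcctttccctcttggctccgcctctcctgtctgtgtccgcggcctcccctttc
They lie at chr10:127063285-127063534 and chr9:123366677-123366926, both on the plus strand. The Cdk4 promoter holds 4 copies of CACGTG and the Lars2 promoter holds none. The hexamer occurs in 1978 of 32851 promoter windows of this length (6.02%). Among members of the MYC and ribosome biogenesis list with a promoter entry, 10 of 29 hold it (34.5%), against 1854 of 27025 genes with one (6.86%), tested here or not. That list was put together from the MYC network and growth genes taken as its targets, so a high share was built in. It says nothing about which genes changed here, and a part of MYC binding in the changes was not tested.

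With anti-PD-1 alone, 1 of 17426 genes tested passed an adjusted p of 0.05 (0.00574% of genes), and it was Lars2, which fell. No gene rose by that test. The test was edgeR's quasi-likelihood F test with Benjamini-Hochberg adjustment over all genes. At an unadjusted p under 0.05 there were 2691 genes (15.4%), of which 906 were higher (5.2%) and 1785 lower (10.2%). At a looser adjusted p of 0.10 there were 62 genes (0.356%), 16 higher (0.0918%) and 46 lower (0.264%), and 12 of the 16 higher were small or structural RNAs. DESeq2, whose model of the spread differs, called 704 of 14297 genes with an adjusted p (4.92%), 215 higher (1.5%) and 489 lower (3.42%), each in the direction that edgeR also gave. On simulated counts of this comparison with 200 changed genes, edgeR recovered 45.2% of genes changed 4-fold and 3.6% of those changed 2-fold. A simpler count asks whether every anti-PD-1 library lay beyond every control library: 1184 genes were higher without overlap (6.79%) and 1860 lower (10.7%). That split depended on the scaling of the libraries. With upper quartile factors the median over all genes moved from -0.00 to 0.17 on the log2 scale, 1858 genes were higher without overlap (10.7%) and 1080 lower (6.20%), and the share of lower genes among those with p under 0.05 went from 66.3% to 37.6%.

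**Figure D1:**
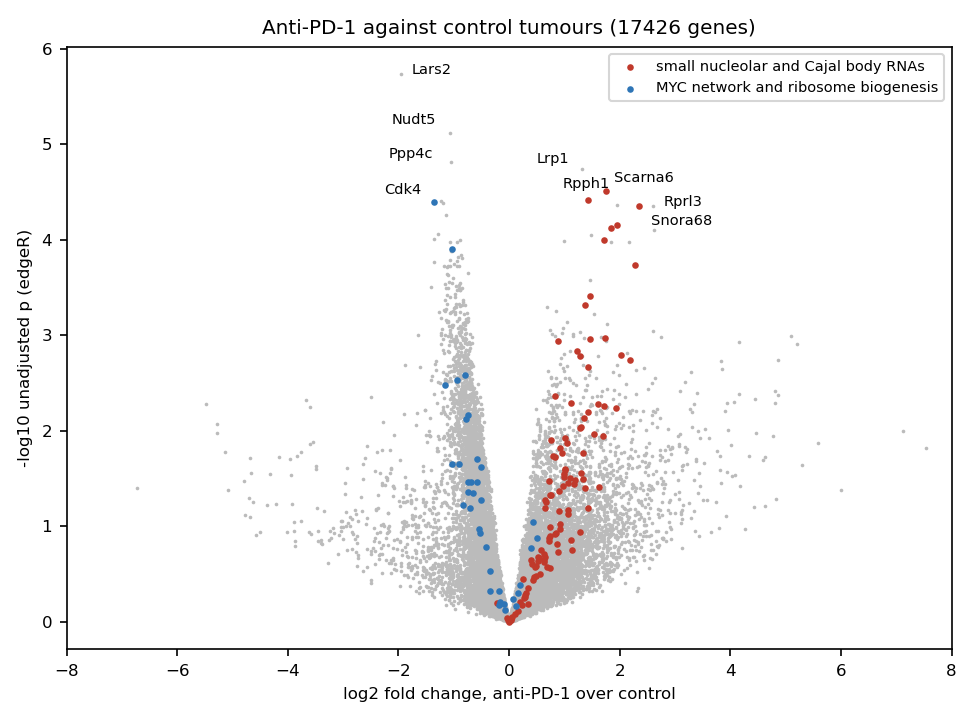
Log2 fold change (anti-PD-1 over control, horizontal) against -log10 of the unadjusted edgeR p (vertical) for the 17426 genes tested, each a point, with small nucleolar and Cajal body RNAs in red and the MYC and ribosome biogenesis list in blue; 2 genes beyond 8 on the horizontal axis are not drawn. Lars2 has the smallest p, the red points lie almost wholly to the right and the blue points mostly to the left.

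Lars2 charges the mitochondrial tRNA for leucine and is needed for translation of the mitochondrial genome. It stood at 458, 300.1 and 333 CPM in the control libraries and at 115, 90.4 and 76.7 CPM in the anti-PD-1 libraries. Every anti-PD-1 library lay below every control library, and control library 1 was the highest. The log2 fold change was -1.95 (SE 0.22, 95% interval -2.44 to -1.46), which is 3.87-fold lower, with an edgeR adjusted p of 0.0323. The direction held in each of 23 alternatives, with a log2 fold change between -2.14 and -1.75, but the adjusted p stayed under 0.05 in 7 of them. It rose above 0.05 in 11 of the 12 fits that left out 1 library, with the exception of control library 2 (adjusted p 0.0247), up to 0.227 without anti-PD-1 library 2. It was 0.45 in a fit on the 6 libraries alone and 0.432 with the structural RNA share as a covariate. No source used here gives the strand setting of the authors' counting, so reads of any feature overlapping Lars2 on either strand cannot be told apart from its own.

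Among the other 16 mitochondrial tRNA synthetases tested, none passed the test. Of all 17 in that list, Lars2 included, 6 were lower without overlap (35.3%, against 10.7% of all genes) and none higher. An unadjusted p under 0.05 was found for 6, and the 1 that DESeq2 called was Lars2 itself. The median log2 fold change of the 17 was -0.46, against -0.00 over all genes.

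The 10 genes that followed Lars2 by p shared an adjusted p of 0.064 and so did not pass the test at 0.05. Of these, 5 stood lower in every anti-PD-1 library. Nudt5, a hydrolase of ADP-ribose, was at 128, 145 and 123 CPM in control and 62.5, 60.7 and 65.3 CPM with anti-PD-1, a log2 fold change of -1.07 (SE 0.14). The gap between its groups was wider than the spread inside either group. Ppp4c, the catalytic subunit of protein phosphatase 4, was at 88.1, 78.6 and 72.5 CPM and 36.2, 37.4 and 41.4 CPM, a log2 fold change of -1.06 (SE 0.15). Qdpr, which regenerates tetrahydrobiopterin, was at 128, 106 and 98.4 CPM and 58.5, 36.9 and 46.5 CPM (log2 fold change -1.23, SE 0.19). Idh3g, a regulatory subunit of the isocitrate dehydrogenase of the citric acid cycle, was at 169, 119 and 148 CPM and 76, 53 and 60.2 CPM (log2 fold change -1.20, SE 0.19). In all of these the highest anti-PD-1 library lay well below the lowest control library. Cdk4, whose promoter is printed above, was at 763, 622 and 696 CPM in control and 232, 287 and 296 CPM with anti-PD-1, 2.55-fold lower (log2 fold change -1.35, SE 0.21). As a kinase that phosphorylates RB1, it acts upstream of the gene deleted in the tumour cells of both groups.

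The remaining 5 stood higher in every anti-PD-1 library. Lrp1, a large endocytic receptor of the LDL receptor family, was at 42, 35.9 and 42.6 CPM in control and 92.6, 126 and 81.6 CPM with anti-PD-1 (log2 fold change 1.32, SE 0.19). The other 4 are RNAs without a protein product. Scarna6 was at 158, 199.5 and 132 CPM and 563, 502 and 584 CPM, 3.37-fold higher (log2 fold change 1.75, SE 0.27). Snord104 was at 23, 20.4 and 27 CPM and 47.4, 66.5 and 74.9 CPM (log2 fold change 1.42, SE 0.22). The anti-PD-1 libraries of both small RNAs lay at least as far above the control libraries as these were spread among themselves. Rpph1 was at 38586, 50879 and 31556 CPM in control and 135336, 221499.5 and 112123 CPM with anti-PD-1 (log2 fold change 1.95, SE 0.31). Rprl3, a second locus for ribonuclease P-like RNA, was at 114, 167 and 266 CPM and 1525, 731 and 1066 CPM (log2 fold change 2.60, SE 0.41). Reads from Rpph1 and from its near copy Rprl3 may have been shared between them, so the value of Rprl3 is uncertain.

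**Figure D2:**
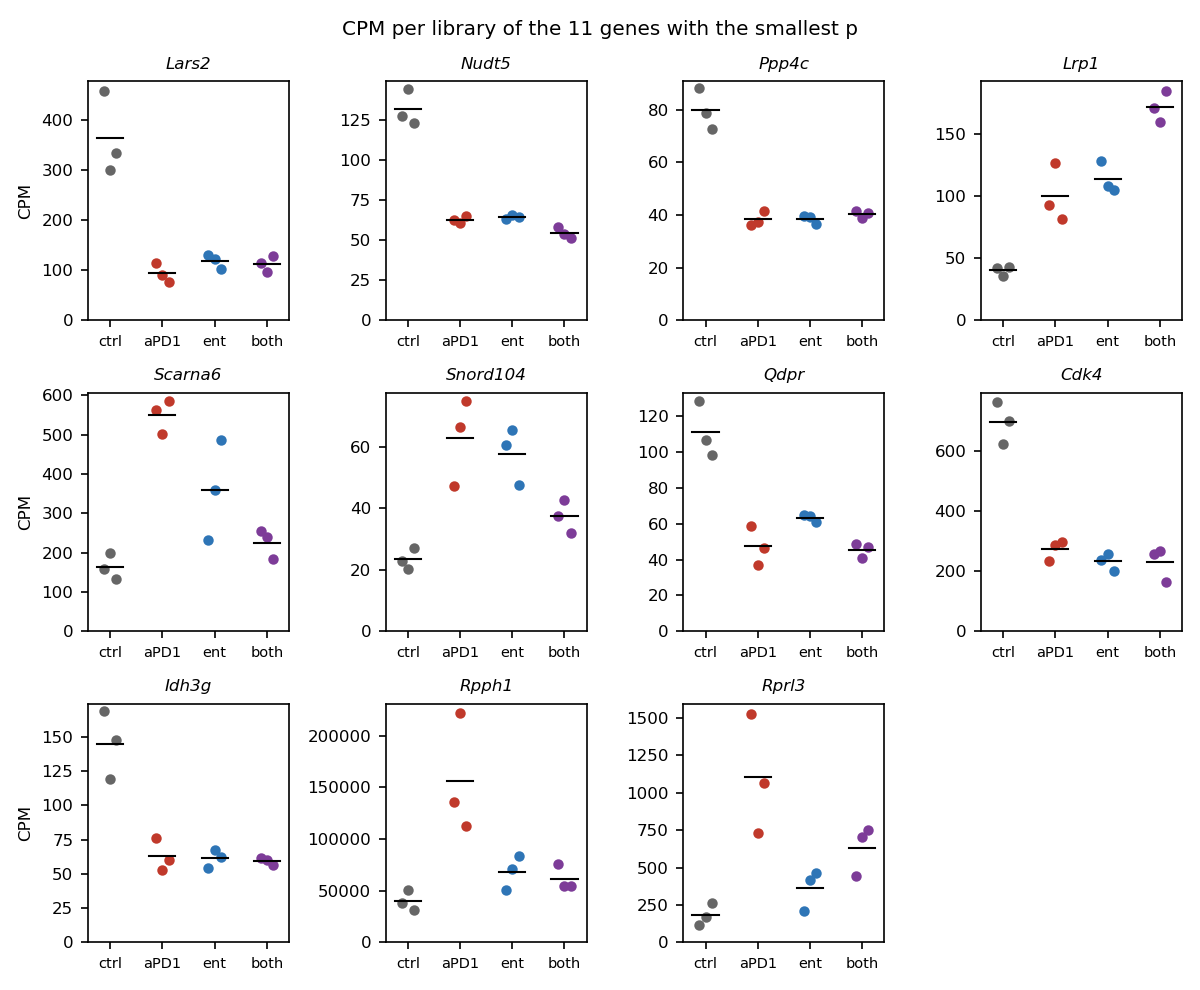
CPM per library (vertical, linear axis from 0, its range set per gene) of Lars2 and the 10 genes next by p, in control (ctrl), anti-PD-1 (aPD1), entinostat (ent) and combination (both) libraries; points are libraries and bars are means. No anti-PD-1 library overlaps the control libraries in any panel, and Lars2, Nudt5, Ppp4c, Cdk4 and Idh3g lie at about the same level in the 3 treated groups.

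The libraries of mice that received entinostat give the level of the same genes in 2 further treated groups. Since both single treatments were compared with the same 3 control libraries, the difference between the treatments was tested directly. Of the 62 genes at an edgeR adjusted p under 0.10, 60 lay beyond all control libraries on the same side with entinostat. With both agents 58 did, and 57 did in both of these groups. The 62 were picked with the same control libraries, so these counts are no independent evidence. Lars2 was at 130.3, 123 and 103 CPM with entinostat and 115, 96.9 and 128 CPM with both agents, so all 9 treated libraries lay below all 3 control libraries. Its entinostat over anti-PD-1 log2 fold change was 0.34 (95% interval -0.13 to 0.81). Cdk4 was at 238, 257 and 201 CPM with entinostat and 256, 267 and 164 CPM with both, and its difference between the single treatments was -0.23 (-0.68 to 0.23). For Nudt5 that difference was 0.04 (-0.26 to 0.34) and for Ppp4c 0.00 (-0.32 to 0.33), intervals that exclude a difference of 1 on the log2 scale. The structural RNAs were different in this respect. Rpph1 was at 51084, 70601 and 83532 CPM with entinostat, with a difference of -1.19 (-1.85 to -0.53), and Rprl3 was at 211, 418 and 465 CPM, with a difference of -1.60 (-2.47 to -0.73). Neither passed after adjustment (edgeR adjusted p 0.423 and 0.423). Across all genes no gene passed between the single treatments by edgeR, 1532 (8.79%) had an unadjusted p under 0.05, and DESeq2 called 145. The 3 smallest p-values belonged to Fat1, an atypical cadherin, Col11a1, a collagen chain, and Arpc5l, a subunit of the ARP2/3 actin complex. Fat1 was at 63.1, 106 and 62 CPM with anti-PD-1 and 253, 261 and 157 CPM with entinostat, against 59.6, 77.3 and 67 CPM in control. Col11a1 was at 10.2, 5.08 and 4.35 CPM with anti-PD-1 and 29.6, 31.9 and 23.7 CPM with entinostat, and Arpc5l at 83.8, 75 and 96.5 CPM with anti-PD-1 and 45.8, 41.5 and 43.7 CPM with entinostat (adjusted p 0.423 for each of the 3). In all 3 the anti-PD-1 libraries lay near or among the control libraries, and the entinostat libraries lay outside them.

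Small nucleolar and Cajal body RNAs stood higher with anti-PD-1 as a group. These RNAs guide the chemical modification of ribosomal and spliceosomal RNA and are mostly cut from introns. Of 123 in the table, 109 were tested, 46 of these were higher without overlap (42.2%, against 6.79% of all genes) and none was lower. None passed edgeR at 0.05, 53 had an unadjusted p under 0.05, all higher, and DESeq2 called 29 higher and none lower. The median log2 fold change was 0.89, and it lay between 0.75 and 1.47 in the 23 alternatives. Their summed share of counts was 0.192%, 0.359% and 0.377% in the control libraries and 0.684%, 0.528% and 0.633% with anti-PD-1. Each anti-PD-1 library was above each control library, and control library 1 had the lowest share. The 2 most abundant members differed from each other. Snora74a stood at 379, 802 and 915 CPM in control and 2454, 2373 and 2062 CPM with anti-PD-1 (log2 fold change 1.72, SE 0.30, adjusted p 0.0716). Scarna10 stood at 392.2, 930.4 and 965 and 1707, 498 and 1318 CPM, with groups that overlapped (log2 fold change 0.62, SE 0.45, adjusted p 0.542). Snora68, a box H/ACA RNA picked after its values were seen, stood at 28.4, 61.8 and 44.7 and 173, 218 and 296 CPM, 5.09-fold higher (log2 fold change 2.35, SE 0.37, adjusted p 0.0641).

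The genes in whose introns these RNAs lie had smaller fold changes. For 94 of the small RNAs a tested host gene was found by position in the annotation, 70 host genes in all. These small RNAs had a median log2 fold change of 0.90 and the hosts one of 0.11. Of the 70 hosts, 10 were higher and 8 lower without overlap, where all genes had shares of 6.79% and 10.7%. Scarna6 lies in Atg16l1, a gene of autophagy, whose log2 fold change was -0.10. The libraries were made by poly(A) selection, and these RNAs carry no poly(A) tail when mature. The share of Rpph1, Rn45s and Rmrp moved with them, as given above. Within that set Rmrp stood at 18194, 21821 and 35918 CPM in control and 67078, 76689 and 67164 CPM with anti-PD-1, without overlap (log2 fold change 1.47, SE 0.25, adjusted p 0.0716), while Rn45s at 26045, 60582 and 67974 and 88853, 148731 and 50004 CPM overlapped (log2 fold change 0.90, SE 0.41, adjusted p 0.322). RNA quality or the efficiency of selection as a part of these differences was not tested.

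**Figure D3:**
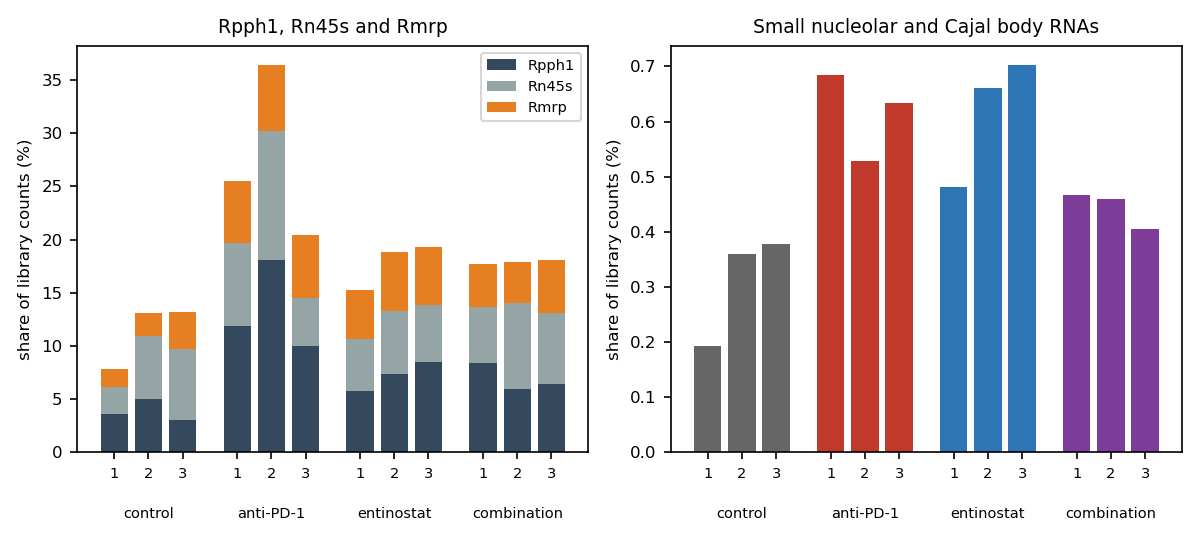
Share of library counts (%) per library, replicates 1 to 3 of each group, for Rpph1, Rn45s and Rmrp stacked (left) and for the summed small nucleolar and Cajal body RNAs (right). The anti-PD-1 bars on the left, 20.5% to 36.4%, exceed those of all other libraries, while on the right they overlap with entinostat and exceed the control bars.

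The lists of MYC targets, the cell cycle, protein quality control, splicing and glycolysis had medians below 0 with anti-PD-1, though none of their members passed the test in edgeR. In the list of the MYC network and ribosome biogenesis, 14 of 36 members were lower without overlap (38.9%, against 10.7% of all genes) and none higher. At an unadjusted p under 0.05, 16 were lower, DESeq2 called 5 lower, and the median log2 fold change was -0.54. Npm1, a nucleolar chaperone of ribosome assembly, was at 2573, 1642 and 1656 CPM in control and 963, 892 and 1631 CPM with anti-PD-1 (log2 fold change -0.75, SE 0.31). Ran, the GTPase of nuclear transport, was at 1320.3, 1359.8 and 941 and 889, 736 and 924 CPM (log2 fold change -0.51, SE 0.20). For both genes the groups came close, the highest anti-PD-1 library lying just under the lowest control library. Fbl (fibrillarin), the methyltransferase that works with box C/D RNAs, had a log2 fold change of -1.03 (SE 0.18), and Nop58, another protein of the same particle, -0.78 (SE 0.24). Dkc1, the pseudouridine synthase of the box H/ACA particle, was at -0.75 (SE 0.23). These 3 were picked after their values were seen, because they bind the small RNAs described above, which stood on the other side. Myc itself was at 91.8, 50.6 and 99.7 CPM in control and 99.8, 165 and 79.1 CPM with anti-PD-1, overlapping groups (log2 fold change 0.51, SE 0.31, adjusted p 0.472).

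The cell cycle list had 12 of 32 members lower without overlap (37.5%, against 10.7% of all genes) and none higher. The list had 15 lower at an unadjusted p under 0.05, 6 called lower by DESeq2 and a median of -0.42. Its 2 most abundant members behaved unlike each other. Top2a, the topoisomerase of dividing cells, was at 956, 629 and 805 CPM in control and 488, 592 and 483 CPM with anti-PD-1 (log2 fold change -0.61, SE 0.20, adjusted p 0.196). Mki67, the proliferation marker, was at 451, 368 and 653 and 573, 718 and 317 CPM, with full overlap (log2 fold change 0.13, SE 0.33, adjusted p 0.892). Clustered histone genes, which are transcribed in S phase, had 18 of 77 members lower (23.4%) and 1 higher (1.30%) without overlap. The lower share was near the 22.3% of the highest class of genes by level. These genes had a median of -0.40, 24 lower and 1 higher at p under 0.05, and 6 lower by DESeq2. Hist1h1a, a linker histone, was at 2220.5, 1238 and 1003 and 866, 883 and 609 CPM, and Hist2h2bb at 2085, 1992 and 2630.1 and 2088, 2349.7 and 2462 CPM. Histone transcripts mostly lack a poly(A) tail and have near-identical copies, so their counts are uncertain.

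Protein quality control genes stood on the same side. Of 31 proteasome subunits, 11 were lower without overlap (35.5%, against 10.7% of all genes) and none higher. Their median was -0.61, with 14 lower at p under 0.05 and 4 lower by DESeq2. The subunits of highest level, Psma3 at 483, 467 and 284 CPM in control and 432, 285 and 709 CPM with anti-PD-1 and Psma7 at 767, 547 and 507 and 436, 338 and 724 CPM, overlapped between the groups, and in both the value of anti-PD-1 library 3 was among the highest of the 6. Of 21 cytosolic chaperones, 8 were lower (38.1%) and none higher (median -0.58, 9 lower at p under 0.05, 6 lower by DESeq2). Hspa8, the constitutive HSP70, was at 4219, 3909 and 3487 CPM in control and 2016, 1854 and 2381 CPM with anti-PD-1 (log2 fold change -0.89, SE 0.18, adjusted p 0.0953). Hsp90ab1, a cytosolic HSP90, was at 4309, 2768 and 2707 and 1577, 1109 and 1952 CPM (log2 fold change -1.08, SE 0.25, adjusted p 0.113). In both genes every anti-PD-1 library lay below every control library. Of 25 chaperones and stress genes of the endoplasmic reticulum, 7 were lower (28%) and none higher. Their median was -0.40, with 6 lower at p under 0.05 and 3 lower by DESeq2. That 28% is to be read against the 22.3% of the highest class of genes by level, which holds 14 of the 25. Hspa5, the chaperone BiP, was at 631, 424 and 406 and 317, 242 and 312 CPM.

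Of 29 core spliceosome genes, 14 were lower (48.3%, against 10.7% of all genes) and 3 higher (10.3%, against 6.79%) without overlap. Their median was -0.38, with 12 lower and 2 higher at p under 0.05, and 5 lower and 1 higher by DESeq2. Sf3b1, a subunit of the U2 particle, was at 563, 385 and 369 CPM in control and 367, 348 and 343 CPM with anti-PD-1, and Snrpg, a Sm protein, was at 294, 301 and 251 and 472, 339.8 and 483 CPM, higher in every anti-PD-1 library. Of 22 glycolysis and hypoxia genes, 7 were lower (31.8%) and 1 higher (4.55%), with a median of -0.43. At p under 0.05, 7 were lower and 1 higher, and DESeq2 called 4 lower. Ldha, which makes lactate, was at 1025, 915 and 939 and 711, 464 and 485 CPM, and Pkm, a pyruvate kinase, at 1324, 1122 and 1083 and 906, 791 and 838 CPM. The control libraries of both enzymes lay above all anti-PD-1 libraries.

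Genes of the mitochondrial ribosome stood lower more often than higher, while the share of respiratory chain genes that stood lower was near that of other highly expressed genes. Of 77 mitochondrial ribosomal proteins, 29 were lower (37.7%, against 10.7% of all genes) and 2 higher (2.60%, against 6.79%) without overlap. Their median was -0.45, with 31 lower and 2 higher at p under 0.05, and 7 lower and 2 higher by DESeq2. Mrpl28 was at 243, 181 and 167 CPM in control and 136, 105 and 144 CPM with anti-PD-1, and Mrpl50 at 115, 143 and 158 and 127, 148 and 169 CPM. Of 81 nuclear-encoded respiratory chain subunits, 17 were lower (21.0%, against 22.3% of the highest class of genes by level) and 4 higher (4.94%; median -0.23, 23 lower and 6 higher at p under 0.05, 6 lower and 1 higher by DESeq2). Atp5b and Atp5a1 encode the catalytic beta and the alpha subunit of ATP synthase. Atp5b was at 1619.8, 1649.7 and 1236 and 924, 543 and 785 CPM (log2 fold change -1.001, SE 0.26, adjusted p 0.141), and Atp5a1 at 1085, 989 and 878 and 733, 566 and 481 CPM. Both were lower in every anti-PD-1 library.

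Cytosolic ribosomal proteins went the other way on balance. Of 85 tested, 18 were higher (21.2%, against 6.79% of all genes) and 10 lower (11.8%, against 10.7%) without overlap. Their median was 0.16 (-0.07 without anti-PD-1 library 3), with 20 higher and 10 lower at p under 0.05, and 12 higher and 3 lower by DESeq2. Rps24 was at 2249, 4414 and 3441 CPM in control and 8183, 8327 and 11314 CPM with anti-PD-1 (log2 fold change 1.46, SE 0.28, adjusted p 0.0952), and Rpl13a at 3133, 6159 and 5554 and 8262, 5679.7 and 7699.6 CPM, where the groups overlapped. These genes have many processed pseudogenes, so reads shared with a copy make their counts uncertain. The 18 that were higher had a median coding length of 402 bases, and the 10 that were lower 788 bases. In the mitochondrial ribosomal list the 2 higher members had a median of 342 bases and the 29 lower ones 771 bases. In the respiratory chain the medians were 300 bases for the 4 higher and 639 bases for the 17 lower members, and in the spliceosome 273 bases for the 3 higher and 543 bases for the 14 lower. By median, the higher members were thus shorter than the lower ones in each of the 4 lists. Outside the cytosolic ribosome this rests on only 2, 4 and 3 higher members. In the spliceosome the members that overlapped had a median of 973.5 bases, so there the lower ones were also shorter than these.

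The same was asked of all genes, with coding lengths from an annotation of another build. The 4357 genes in the highest of 4 classes by mean level had a median log2 fold change of -0.22, and 22.3% of them were lower and 4.50% higher without overlap, while the lowest class had a median of 0.52. Of the lists that stood lower, the highest class holds 31 of 31 proteasome subunits, 29 of 32 cell cycle genes and 28 of 36 genes of the MYC list, so their shares are to be read against this 22.3% as well as against 10.7%. It also holds 72 of 81 respiratory chain subunits, 46 of 77 clustered histone genes and 14 of 22 deacetylases and corepressors, whose shares of 21.0%, 23.4% and 22.7% lower lie near that of the class and are no result about these genes. Of that class, 4278 genes had a coding length. Genes of up to 300 bases had a median of -0.03, with 13.8% lower and 10.1% higher without overlap. Those of 600 to 1200 bases had a median of -0.44, with 38.0% lower, and those over 2400 bases 0.06, with 5.81% lower. The lowest medians were at the middle lengths. The lower shares of the proteasome (35.5%), cell cycle (37.5%) and mitochondrial ribosome (37.7%) lists did not exceed the 38.0% of the 600 to 1200 base class. Cytosolic chaperones (38.1%) and the MYC list (38.9%) lay just above it, and the spliceosome list (48.3%) further above. Whether any of these lists differs from genes of like level and length was not tested. With the structural RNA share as a covariate, an alternative added after the data were seen, the medians of the proteasome, mitochondrial ribosome and respiratory chain lists turned to 0.27, 0.14 and 0.15, while those of the MYC, cell cycle and spliceosome lists stayed below 0. In the comparison of the combination with entinostat, genes of up to 300, 600 to 1200 and over 2400 bases had medians of -0.14, -0.10 and -0.04.

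**Figure D4:**
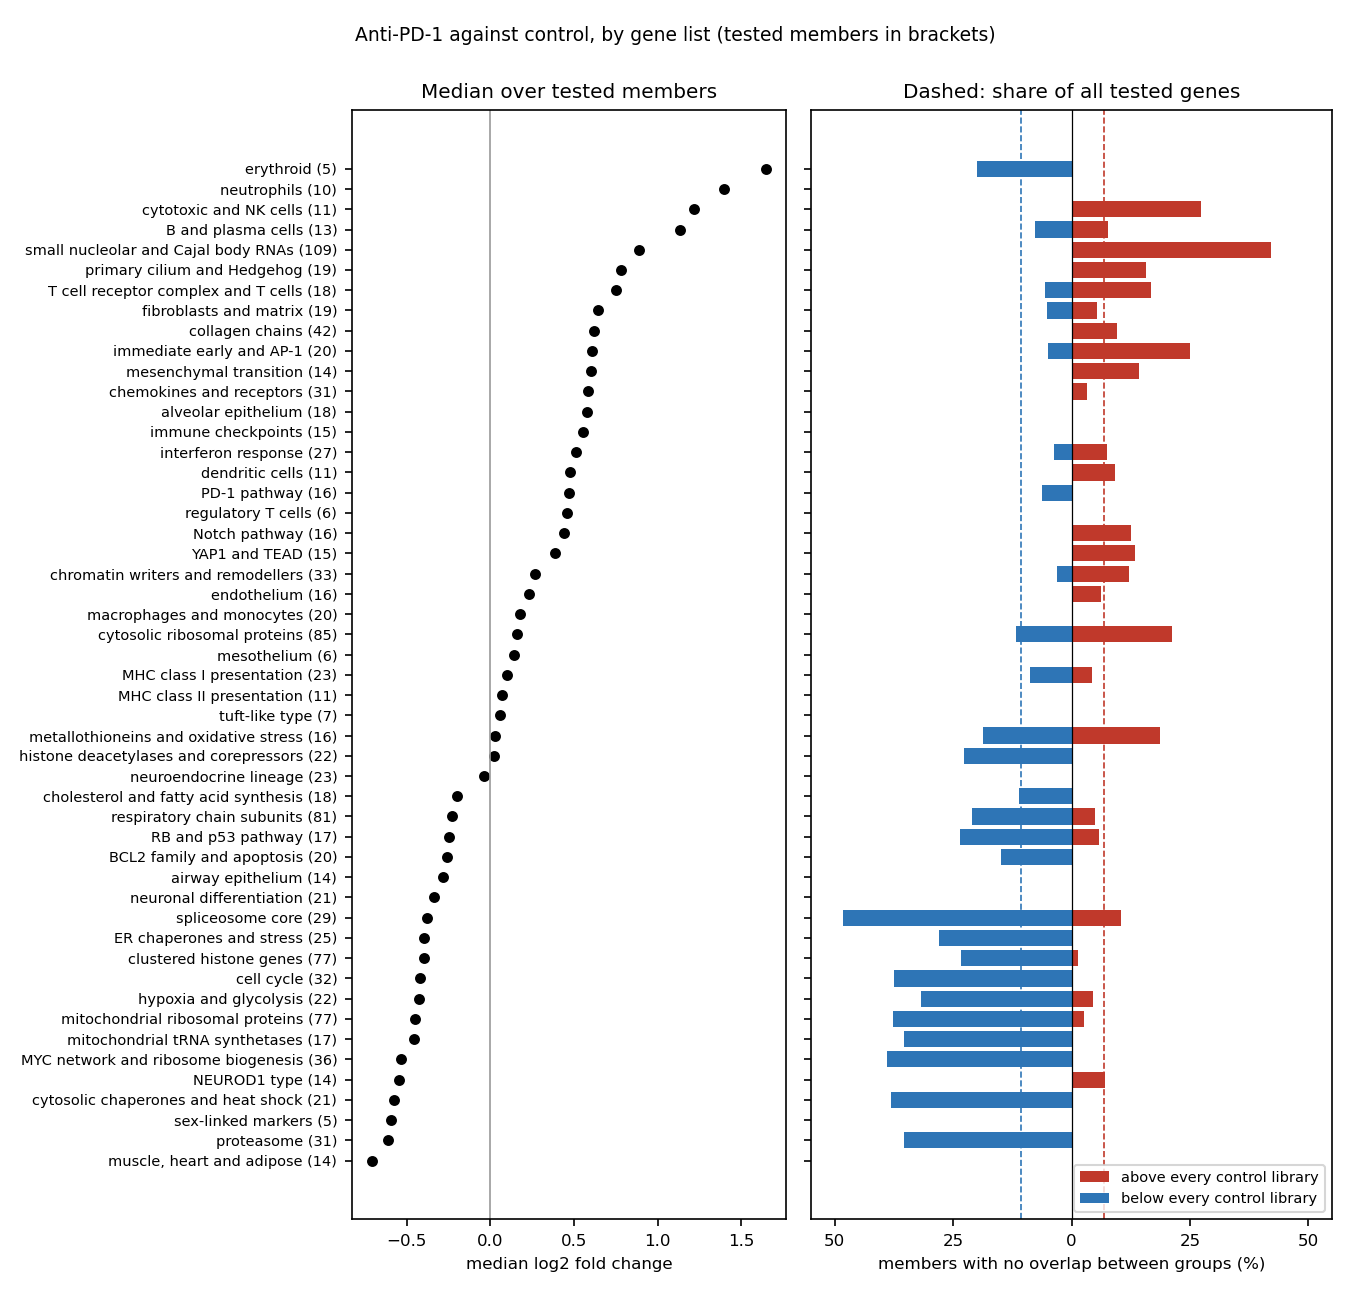
Left, median log2 fold change (anti-PD-1 over control) of the tested members of each gene list, with their number in brackets; right, share of members (%) with all 3 anti-PD-1 libraries above (red) or below (blue) all 3 control libraries, with dashed lines at the shares over all genes (6.79% and 10.7%). Small nucleolar RNAs reach 42.2% on the right-hand side, and spliceosome, MYC network, chaperone, mitochondrial ribosome, cell cycle, proteasome and mitochondrial tRNA synthetase lists exceed 35% on the left-hand side.

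The target of the antibody was expressed close to the limit of detection, and no gene of its pathway passed the test. Pdcd1, the target, had 0, 31 and 6 counts in the control libraries and 29, 4 and 18 counts with anti-PD-1. Its log2 fold change was 1.05 (95% interval -1.93 to 4.03, edgeR adjusted p 0.753), an interval that spans large changes in both directions. Cd274, the ligand PD-L1, was at 1.29, 3.93 and 3.52 CPM in control and 4.41, 3.63 and 4.86 CPM with anti-PD-1 (log2 fold change 0.56, 95% interval -0.39 to 1.52, adjusted p 0.57). Of the 16 tested PD-1 pathway genes none passed, none had an unadjusted p under 0.05 and DESeq2 called none; 1 was lower without overlap (6.25%), and the median was 0.47, between 0.08 and 0.88 in the alternatives. Ptpn11, the phosphatase SHP2, was at 111, 93.3 and 100.5 and 115, 125 and 87.7 CPM, and Csk, a kinase that restrains LCK, was at 67.5, 38.8 and 55.5 and 43.2, 51.6 and 39.3 CPM. Both overlapped fully between the groups.

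T cell transcripts were few in both groups. Cd3e, a chain of the T cell receptor complex, had 0 to 10 counts in the control libraries and 2 to 11 with anti-PD-1. Gzmb, a granule protease of cytotoxic cells, had 0 to 10 counts in each group, and Ifng, which encodes interferon gamma, had 0 to 4 in control and 0 in every anti-PD-1 library. These 3 were too low to be tested. Cd8a, the coreceptor of cytotoxic T cells, had 7, 9 and 12 counts in control and 52, 10 and 12 with anti-PD-1. After scaling its values were 0.137, 0.186 and 0.304 CPM and 1.74, 0.353 and 0.363 CPM, so the groups did not overlap, but anti-PD-1 libraries 2 and 3 lay just above the highest control library and library 1 held most of the counts. The log2 fold change was 1.96 (95% interval 0.27 to 3.64, adjusted p 0.262). Of 18 tested T cell genes, 3 were higher (16.7%, against 6.79% of all genes and 9.80% of the lowest of 4 classes by level) and 1 lower without overlap (median 0.75, 2 higher at p under 0.05, none passed edgeR or DESeq2). Without anti-PD-1 library 1 the median was -0.54. The 3 higher ones were Cd5, Cd8a and Tcf7, and the lower one was Cd4, named after their values were seen. Cd5 was at 0, 0.269 and 0.0759 and 1.6, 0.388 and 0.514 CPM, and Cd4 at 4.74, 2.96 and 3.59 and 2.87, 1.83 and 1.45 CPM. Library 1 was again the highest anti-PD-1 library for both. Cd247, the zeta chain, was at 10.7, 11.7 and 18.5 and 18.7, 19.3 and 12.2 CPM. Bcl11b, a transcription factor of T cells that neurons also express, was at 40.3, 0.579 and 0.152 and 1.47, 3.88 and 4.26 CPM, with nearly all of the control signal in library 1.

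Of 17 cytotoxic and natural killer cell genes, 11 were tested and 3 of these were higher without overlap (27.3%, against 6.79% of all genes and 9.80% of the lowest class), none lower (median 1.218, between 0.86 and 2.65 in the alternatives, the latter without control library 2; 1 at p under 0.05, none passed edgeR or DESeq2). The 3 were Ctsw, Fasl and Tbx21, named after their values were seen. Ctsw, a protease of cytotoxic cells, was at 0.822, 1.12 and 0.962 CPM in control and 1.14, 1.24 and 1.21 CPM with anti-PD-1, a difference of under 1 CPM. Fasl, the death ligand, was at 0, 0.166 and 0.101 and 0.602, 0.282 and 0.423 CPM, or 0, 8 and 4 counts against 18, 8 and 14. Eomes, the other gene of high mean level in the list, was at 0.783, 0 and 0 and 0, 0.0706 and 3.87 CPM and so rested on single libraries. The summed level of the 11 tested members was 2.76, 4.93 and 2.02 CPM in control and 6.95, 5.01 and 8.82 CPM with anti-PD-1. It was higher in every anti-PD-1 library, by a margin of under 0.1 CPM between control library 2 and anti-PD-1 library 2. The untested members are not in this sum. Of these, Gzmb and Nkg7 had 10 counts each in control library 2 and 0 in anti-PD-1 library 2. The groups thus cannot be called separate for the whole list. In bulk tissue, more cells of a type and more RNA per cell cannot be told apart. The summed level of the 18 tested T cell genes, 61.6, 35.0 and 36.0 CPM in control and 78.6, 36.3 and 32.0 CPM with anti-PD-1, overlapped. Bcl11b, which neurons also express, made up most of that sum in control library 1, so the sum is no measure of T cells alone.

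Interferon and antigen presentation genes had shares without overlap near or below those of all genes (6.79% higher and 10.7% lower). Medians above 0 are to be read beside the level of these genes. Over all genes, the lowest of 4 classes by level had a median of 0.52 and the next 0.12. The highest class holds 0 of 27 interferon, 1 of 15 checkpoint and 2 of 16 PD-1 pathway genes. The part of level in the medians of these lists was not tested. Of 27 interferon response genes, 2 were higher (7.41%) and 1 lower (3.70%) without overlap (median 0.51, between 0.28 and 1.14 in the alternatives, 1 at p under 0.05, none passed edgeR or DESeq2). Ifit2, an interferon-induced RNA-binding protein, was at 19.7, 13.3 and 18.3 CPM in control and 16.7, 18.6 and 8.82 CPM with anti-PD-1. Irf7, a transcription factor induced by interferon, was at 1.1, 2.63 and 2.53 and 3.07, 4.52 and 4.38 CPM. Nlrc5, the transactivator of MHC class I genes, was at 0.47, 1.24 and 0.936 and 4.45, 1.73 and 2.63 CPM (log2 fold change 1.73, 95% interval 0.53 to 2.93, adjusted p 0.185). Irf7 and Nlrc5 were picked after their values were seen, since they stood higher in every anti-PD-1 library. Of 23 MHC class I presentation genes, 1 was higher (4.35%) and 2 lower (8.70%) without overlap (median 0.10, 1 higher and 2 lower at p under 0.05, 1 higher and 2 lower by DESeq2). Calr, the chaperone calreticulin, was at 531, 419.9 and 348 and 261, 228 and 259 CPM, and Canx, calnexin, at 604, 485 and 512 and 492, 366 and 451 CPM. Of 11 MHC class II genes none was beyond the control range in all 3 libraries (median 0.07, none at p under 0.05, none passed edgeR or DESeq2). Cd74, the invariant chain, was at 1.9, 50.7 and 15.6 and 39.2, 22.7 and 14.9 CPM. Among 15 checkpoint genes, 3 of which (Pdcd1, Cd274 and Pdcd1lg2) are also in the PD-1 pathway list, none was beyond the control range in all 3 libraries (median 0.55, between -0.08 and 1.03 in the alternatives, none at p under 0.05 and none by edgeR or DESeq2), with Cd47, a signal against phagocytosis, at 18.8, 48.4 and 87.4 and 71.1, 40.1 and 35.3 CPM and its receptor Sirpa at 34.2, 33 and 29.3 and 36.2, 32.1 and 19.9 CPM.

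**Figure D5:**
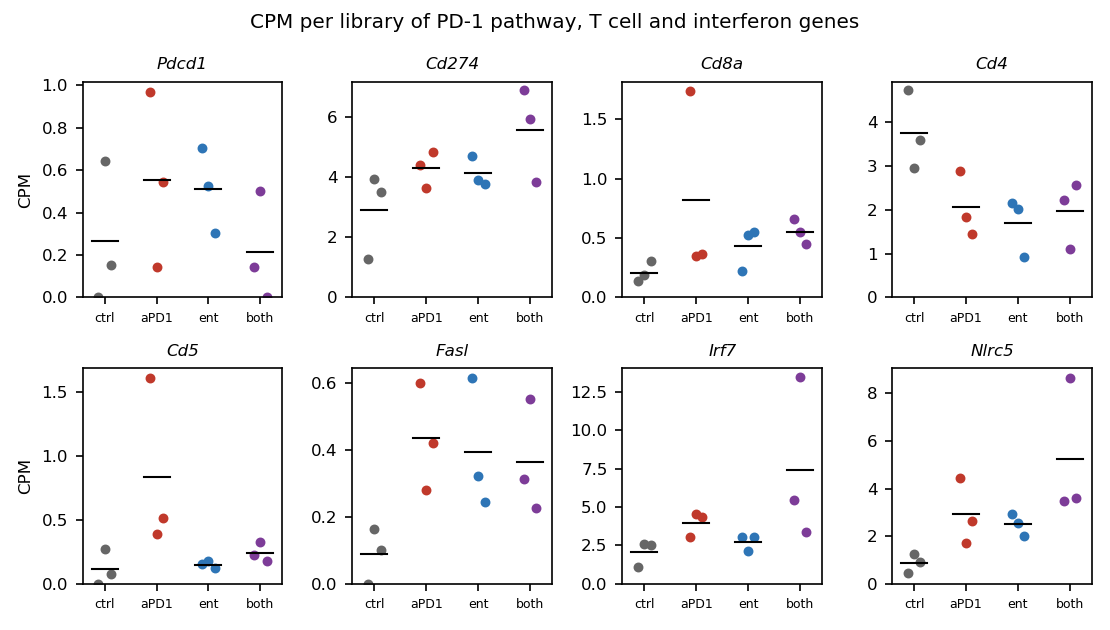
CPM per library (vertical, linear axis from 0, its range set per gene) of 8 PD-1 pathway, T cell and interferon genes in the 4 groups, as above; points are libraries and bars are means. The anti-PD-1 libraries of Cd8a and Cd5 include 1 high library each, Cd4 is lower and Irf7 and Nlrc5 higher than in control, and every axis ends below 20 CPM.

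Markers of other cell types varied widely between libraries of a group. Neutrophil genes had a median log2 fold change of 1.40 over 10 tested members, between 0.26 (structural RNA share as a covariate) and 3.23 (without control library 2) in the alternatives, with none beyond the control range in all 3 libraries, none at p under 0.05 and none called by edgeR or DESeq2. S100a8 was at 0.0783, 4.74 and 0.455 CPM in control and 2.21, 20.0 and 8.19 CPM with anti-PD-1. The summed level of the 10 tested members was 0.842, 46.6 and 3.11 CPM and 10.5, 75.7 and 32.9 CPM. Sftpc, the surfactant gene of alveolar type II cells, was at 0.0979, 201 and 0.557 and 1.24, 164 and 55.7 CPM. In both genes library 2 of each group was the highest of its group. Of the 18 alveolar genes 1 had an unadjusted p under 0.05, and none was beyond the control range in all 3 libraries. Of 6 regulatory T cell genes tested, 4 had a log2 fold change above 0, with a median of 0.46 (between -0.43 and 0.75 in the alternatives). None was beyond the control range in all 3 libraries, and none was called by edgeR or DESeq2. Foxp3, the 1 at p under 0.05, was lower, at 24.7, 13.4 and 18 and 10.5, 14.4 and 8.04 CPM (log2 fold change -0.77, edgeR adjusted p 0.235). In control library 1, where Foxp3 was highest, Cd3e and Pdcd1 had 0 counts. Foxp3 is thus not read here as a measure of regulatory T cells, and the source of its reads was not tested. Tnfrsf18 had a log2 fold change of 0.58, with groups that overlapped.

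Regulators of tumour cell identity varied between libraries of a group. Neurod1, which marks a neuroendocrine type of SCLC, was at 490.2, 5.65 and 10.8 CPM in control libraries 1 to 3 and 16.1, 20.1 and 149 CPM in anti-PD-1 libraries 1 to 3. Control library 1 and anti-PD-1 library 3 were the highest in their groups. Yap1, which marks a non-neuroendocrine type, was at 5.21, 4.39 and 2.56 and 3.01, 10.9 and 7.71 CPM. Uchl1, a neuronal hydrolase, was at 755, 511 and 273 and 427, 245 and 328 CPM, and Ddc, which makes amine transmitters, at 32.6, 529 and 257 and 357, 212 and 149.8 CPM. Of 23 neuroendocrine lineage genes none was beyond the control range in all 3 libraries (median -0.04, or 0.10 with upper quartile factors; 1 at p under 0.05, none called by edgeR or DESeq2). The alleles of the model were present in both groups and in other cells of the tissue. Rb1 was at 30.1, 49.6 and 46.1 CPM in control and 63.8, 53 and 81.7 CPM with anti-PD-1, and Trp53 at 15.8, 13.5 and 20.0 and 10.2, 8.4 and 19 CPM. Reads from the deleted part cannot be told apart from the rest of these genes in this table.

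Some other lists had medians above 0. Of 20 immediate early genes, which respond quickly to growth signals and to handling of tissue, 5 were higher (25%, against 6.79% of all genes) and 1 lower without overlap (median 0.61, 7 higher and 2 lower at p under 0.05, none by edgeR, 2 higher by DESeq2). The 2 most abundant were on the other side, Jun at 64, 58.7 and 79.8 CPM in control and 46.2, 49.967 and 48.9 CPM with anti-PD-1 and Btg2 at 46.5, 73.6 and 85.6 and 45.1, 53.5 and 30.5 CPM. Fos, picked after its values were seen, was at 1.49, 5.24 and 3.8 and 20.2, 5.4 and 9.85 CPM (log2 fold change 1.75, SE 0.54, adjusted p 0.177). Of 19 primary cilium and Hedgehog genes, 3 were higher (15.8%) and none lower (median 0.78, 4 at p under 0.05, none by edgeR, 2 by DESeq2). Ptch1, the Hedgehog receptor, was at 24.3, 16.6 and 37.8 and 27.7, 139.8 and 54.7 CPM, a difference carried by anti-PD-1 library 2, and Kif3a, a motor of ciliary transport, was at 48.1, 21.7 and 31.6 and 32.7, 29.6 and 30.9 CPM. Of 42 collagen chains, 4 were higher and none lower (9.52%, near the 6.79% of all genes; median 0.62, between 0.15 and 0.82 in the alternatives, the former without anti-PD-1 library 1, 8 higher and 2 lower at p under 0.05, none by edgeR, 1 higher by DESeq2), with Col3a1 at 130.1, 141 and 157 and 388, 229 and 54.9 CPM. Of 33 chromatin writers and remodellers, 4 were higher (12.1%) and 1 lower (median 0.27, or -0.36 with the structural RNA share as a covariate; 4 higher at p under 0.05, none by edgeR, 2 higher by DESeq2). Tead1, a DNA-binding partner of YAP1, was at 69.4, 54.8 and 77.9 and 132, 124 and 99.4 CPM, higher in every anti-PD-1 library (log2 fold change 0.81, SE 0.24, adjusted p 0.169). Mt1, a metallothionein, was at 6.56, 11.7 and 17.3 and 25, 32.9 and 39.5 CPM (log2 fold change 1.45, SE 0.38, adjusted p 0.14).

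The lower share of histone deacetylase genes was near that of other highly expressed genes. Class I histone deacetylases, the targets of entinostat, were also read in these mice, which did not receive that drug. Of 22 deacetylases and their corepressors, 5 were lower and none higher without overlap (22.7%, against 10.7% of all genes and 22.3% of the highest class by level, which holds 14 of the 22; median 0.02, 6 lower and 1 higher at p under 0.05, none by edgeR, 3 lower by DESeq2). Hdac3 was at 109, 114 and 97.3 CPM in control and 74, 75.3 and 73.7 CPM with anti-PD-1 (log2 fold change -0.52, SE 0.15, adjusted p 0.154). Its level was 69, 66.5 and 72.2 CPM with entinostat. Rbbp4, a histone-binding subunit of several corepressor complexes, was at 757, 633 and 662 and 409, 296 and 567 CPM, and Chd4, the remodelling ATPase of the NuRD complex, at 391, 310.1 and 315 and 342, 445 and 259 CPM, where the groups overlapped.

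The effect of the same antibody in mice that also received entinostat gives an estimate from 6 other libraries. The combination was compared with entinostat alone, and no gene passed edgeR, with 270 genes (1.55%) at an unadjusted p under 0.05 and 1 called by DESeq2, Ccdc172. Genes without overlap numbered 579 higher (3.32%) and 608 lower (3.49%), fewer than with the antibody alone. Lars2 had a log2 fold change of -0.07 there (SE 0.22, 95% interval -0.54 to 0.40) and Cdk4 of -0.02 (SE 0.21, -0.47 to 0.44). Scarna6 was at 233, 360.1 and 487 CPM with entinostat and 255, 239 and 183 CPM with both, a log2 fold change of -0.67 (SE 0.26), and Snord104 at 60.5, 65.4 and 47.7 and 37.6, 42.8 and 31.9 CPM, -0.63 (SE 0.22). Both small RNAs were thus lower on average when the antibody was added to entinostat and higher when it was given alone. The 109 small nucleolar and Cajal body RNAs had a median of -0.43 there, against 0.89 with the antibody alone. The 3 genes with the smallest p in this comparison were Sox5, Spaca1 and Ret, each with an adjusted p of 1. Ret, a receptor tyrosine kinase, was at 0.791, 1.14 and 1.04 CPM with entinostat and 3.57, 3.62 and 2.51 CPM with both, and at 5.89, 8.82 and 4.43 and 4.71, 2.19 and 7.4 CPM in control and anti-PD-1 libraries.

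The difference between the antibody's effect with and without entinostat was tested as an interaction. No gene passed edgeR, 1052 (6.04%) had an unadjusted p under 0.05, and DESeq2 called 60. The 3 smallest p-values belonged to Snord104, with an interaction of -2.05 on the log2 scale (SE 0.31, adjusted p 0.284), Scarna6 at -2.43 (SE 0.37, adjusted p 0.284) and Lars2 at 1.88 (SE 0.31, adjusted p 0.303). Since the interaction contains the comparison of anti-PD-1 with control, these genes are not a second line of evidence for it. By edgeR, no single gene was thus shown to respond differently to the antibody in the presence of entinostat.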

How the data were processed

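RNA was sequenced from flash-frozen, dissected lung tumour after poly(A) selection, per the labels' protocols. The authors deposited raw counts per gene, 22738 rows by 12 libraries; the submitters' processing notes list the mouse build mm9, STAR 2.5.4a, R 3.5.1, DESeq2 1.22.2, Trimmomatic 0.36 and Trim Galore, but no annotation or strand setting. All libraries carry batch label 2.

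Counts were tested with edgeR 4.0.16 (R 4.3.3): filterByExpr left 17426 genes, TMM factors scaled the libraries, and 1 model of 12 libraries gave the quasi-likelihood F tests for 4 comparisons, adjusted by Benjamini-Hochberg with a threshold of 0.05. CPM values use TMM-scaled totals. Permutation of 3 against 3 libraries cannot give a p under 0.1. At this depth the spread between libraries, not counting, limits all but the low genes. All 15 pairs of the 6 libraries differed by more than sampling noise (lowest chi-square divided by its degrees of freedom 143).

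The genes, the 52 gene lists (51 with a tested member) and the comparison were chosen with earlier results of these data known. Named genes follow a rule: up to 15 rises and 15 falls that passed the test, did not overlap and had a mean log2 CPM of 1 or more, the next 10 by p, from each list up to 4 members past the threshold or else the 2 of highest mean CPM, and a set of fixed genes; others are said to be picked after their values were seen, and some genes the rule takes are left unreported. Lists are described by counts and medians, with no set test. RefSeq entries matched 16567 of 17426 tested rows (95.1%). In simulated counts of this comparison (17426 genes, 200 changed, 5 sets), 2.01% of calls were false. The alternatives were other scaling factors, DESeq2, no filter on low counts, halved counts (even values make up 65.3% to 77.2% of low counts, as when both mates of a pair are counted), removal of the 3 structural RNAs, the 6 libraries alone, covariates, the replicate number as a block, and each library left out.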

Additional observations from a re-analysis of the deposited data

How the results depend on the processing

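Of the genes that passed for anti-PD-1 against control (1, Lars2), the count was also 1 with RLE or upper quartile factors, no filter, halved counts, or the 3 structural RNAs removed. It was 704 with DESeq2 (215 higher, 489 lower) and 0 on the 6 libraries alone, with the alveolar score, the sex read from Xist, or, added after seeing the data, the structural RNA share as a covariate. Leaving out each of 12 libraries gave 0 to 2: without control library 2 Lars2 and Cpne7 passed (2 genes; Cpne7 at 143 CPM in that library alone of the controls), and without any other library none did. The other 3 comparisons gave 0 under every alternative run except DESeq2, which called 1 gene for the combination against entinostat, 60 for the interaction and 145 for entinostat against anti-PD-1. The interaction was not refitted on fewer groups, since it uses all 4. With the replicate block the count was 0, with a log2 fold change of -1.95 for Lars2; the same-numbered control and anti-PD-1 libraries had deviations from their group means that correlated at -0.09, 0.21 and -0.26, so the numbers did not pair them. The cause of these changes was not tested. Single genes were refitted only for Lars2 and the 10 next by p, and none of these reversed: Lars2 missed the threshold in 16 alternatives, and the other 10 passed with DESeq2. Of the list medians, 63 values moved by more than the spread between replicates and 1109 did not.

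Depth limits the immune genes: at 0 to 52 counts for Pdcd1, Cd3e, Cd8a, Gzmb and Ifng, a difference between the groups of the size seen within them was not detectable.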

Other observations

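The Notch pathway, which restrains neuroendocrine fate, had 2 of 16 members higher without overlap (12.5%, against 6.79% of all genes) and none lower (median 0.44, between 0.06 and 0.70 in the alternatives, 4 higher at p under 0.05, none by edgeR, 1 by DESeq2), with its ligand Jag2 at 34.8, 39.4 and 52.1 CPM in control and 55.8, 49.4 and 60.6 CPM with anti-PD-1 and its effector Rbpj at 55.3, 61.3 and 79.8 and 71.9, 80.7 and 56.6 CPM. Hes6, a transcription factor of the Hes family, stood at 72.1, 425 and 238 and 122, 89.6 and 37 CPM, and Tubb3, a neuronal tubulin, at 909, 165 and 64.3 and 194, 96.2 and 286 CPM. Hes6 was highest in control library 2 and Tubb3 in control library 1.

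Mesenchymal genes had 2 of 14 members higher without overlap (14.3%) and none lower (median 0.60, -0.14 with the structural RNA share as a covariate; 1 at p under 0.05, none by edgeR or DESeq2), with Vim at 121, 56.8 and 68.3 CPM in control and 106, 85.9 and 200.4 CPM with anti-PD-1 and Fn1, which encodes fibronectin, at 91.6, 130.1 and 177 and 344, 172 and 64.5 CPM. Tested RNAs by RefSeq class differed in their median log2 fold change: 0.49 for 344 microRNA genes, 0.37 for 950 long noncoding RNAs and -0.03 for 14986 protein-coding genes. The corresponding medians for the combination against entinostat were 0.11, 0.10 and 0.03. The RNA classes were not matched by level. With anti-PD-1 the lowest of 4 classes by level had a median of 0.52 over all genes, and the part of level in these medians was not tested.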
